A study of Caenorhabditis elegans with 15 samples.

Results

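Body shape in Caenorhabditis elegans depends on collagens of the cuticle, the extracellular coat that the epidermis secretes anew in each molting cycle. The genes described here are 10 such collagen genes that act outside the furrow group: dpy-4, dpy-5, dpy-13, dpy-14, dpy-17, rol-6, sqt-1, sqt-2, sqt-3 and lon-3. They were taken by name, from a list drawn up with earlier results of these data known, and all 10 were found among the 16259 genes of the deposited count table. Their expression was followed in 15 poly-A RNA libraries of whole larvae at the L2 stage, grown at 20 °C on bacteria-fed plates. There were 5 libraries of the wild-type strain N2, 5 of sma-3 mutants and 5 of sma-6 mutants, and the labels do not name the alleles. Both mutants were compared with the same wild-type libraries, so the comparisons with the wild type are not independent.

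The names of these genes record what their mutations do to the animal: Dpy animals are short and stout, Rol animals turn around their long axis, Sqt mutations give short or rolling animals depending on the allele, and loss of lon-3 gives a long body while extra lon-3 copies give a short one. Cuticle collagens are made as procollagens, trimmed by proteases such as BLI-4 and DPY-31, hydroxylated on proline by enzymes such as PHY-2 and DPY-18, and cross-linked in the matrix by the oxidase BLI-3 with the peroxidase MLT-7. A separate group of collagens (DPY-2, DPY-3, DPY-7, DPY-8, DPY-9 and DPY-10) forms the circumferential furrows, whereas DPY-5 and DPY-13 are known from the ridges between furrows, the annuli. SQT-1 and ROL-6 interact genetically, and DPY-17 is needed for secretion of SQT-3, the collagen that DPY-31 cleaves. The mutated genes belong to the pathway of DBL-1, a ligand of the bone morphogenetic protein family that sets body size, in which SMA-6 acts as a receptor and SMA-3 is a Smad that carries the signal to the nucleus. Mutants of either gene are small, and the pathway is known to regulate cuticle collagen genes.

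Libraries held 16.5 to 48.3 M counts. The sma-3 transcript measured 22.6 to 32.5 CPM (counts scaled to library size, normalized by TMM, the trimmed mean of M values, which corrects for composition) in the wild type and 8.86 to 10.8 CPM in sma-3 mutants. That of sma-6 measured 37.2 to 47.7 CPM in the wild type and 8.83 to 9.75 CPM in sma-6 mutants. In the other mutant, sma-3 measured 21.8 to 25.4 CPM and sma-6 measured 23.2 to 27.0 CPM. Each mutated transcript was thus lowest in its own mutant, but sma-6 was also below all wild-type libraries in sma-3 mutants. Of 4 adult cuticle collagen genes, the 3 that were listed (among bli-1, bli-2, col-19 and col-7) summed to between 0.0452 and 3.46 CPM in every library. The sum of 5 adult or embryo markers (vit-2, vit-5, vit-6, cbd-1 and perm-2) was 10.7 to 219.9 CPM in wild-type libraries, with a mean of 55.5 and an SD of 92.0 CPM. The wild-type values were uneven: vit-2 had a median of 0.528 CPM and a maximum of 71.4 CPM. The same sum was at most 21.4 CPM in sma-3 and at most 37.8 CPM in sma-6 libraries. The part of such material in the results was not tested. In the labels the libraries of each genotype carry a separate run of sample-sheet numbers, so library order and genotype cannot be told apart. The labels do not say whether libraries of one genotype came from separate cultures, so p-values measure the spread between these libraries, which may be technical. In whole-animal RNA, fewer cells of a type and less RNA per cell cannot be told apart.

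Wild-type replicate 5 stood apart from the other wild-type libraries on these genes. It was the highest wild-type library for all 10 of them, while 31.4% of the 13720 genes tested were highest there. Its level was 1.31 times the mean of the other wild-type libraries for dpy-4, the least, and 1.91 times for sqt-1, the most among the 8 abundant genes. For the 6 furrow collagens the same ratio was 1.05 to 1.28, and for 14 molting-cycle genes other than collagens 10 were highest in that library and 2 lowest. All 4 germline markers (pgl-1, glh-1, glp-1 and gld-1) were lowest there within the wild type, beside 30.8% of all genes tested. Also lowest there were 3 of 4 muscle, 3 of 6 epidermal, 2 of 4 intestinal and 1 of 4 neuronal markers. Highest there were 1 epidermal and 2 intestinal markers. Some results that rest on the wild type are given with and without this library, as stated at each. Because it was highest for all 10 genes, leaving it out lowers their wild-type means by construction. All other values against the wild type include it. The part of molting phase and tissue proportions in these results was not tested.

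The levels of the 10 genes in the wild type fell into 3 tiers. The following levels are wild-type means per kilobase of exon with the SD over 5 libraries, and positions belong to the WBcel235 assembly. The collagen gene dpy-5 (WBGene00001067; chromosome I, 5432197 to 5433051, minus strand, a single exon) was the most abundant at 1893 ± 448 CPM per kb. The other annular collagen gene, dpy-13 (WBGene00001074; chromosome IV, 4235614 to 4236710, plus strand), followed at 1674 ± 371 CPM per kb. A second dumpy collagen gene on that chromosome, dpy-4 (WBGene00001066; chromosome IV, 14985543 to 14986784, minus strand), stood at 1218 ± 177 CPM per kb. All 3 dumpy collagen genes ranked above at least 99.1% of the 13575 tested genes with an annotated exon length. The DPY-31 substrate sqt-3 (WBGene00005018; chromosome V, 12352745 to 12354320, plus strand) was measured at 1216 ± 322 CPM per kb. The roller and squat genes sqt-1 (WBGene00005016; chromosome II, 11336693 to 11337837, minus strand), rol-6 (WBGene00004397; chromosome II, 8733050 to 8734239, plus strand) and sqt-2 (WBGene00005017; chromosome II, 23325 to 24458, plus strand) lay between 932 ± 264 CPM per kb for sqt-2 and 1059 ± 401 CPM per kb for sqt-1. An annotated non-coding RNA overlaps exons of sqt-3 on the opposite strand.

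Below these 7 genes lay lon-3 (WBGene00003057; chromosome V, 12197437 to 12198645, minus strand) at 187 ± 56.5 CPM per kb, still above 95.4% of ranked genes. The remaining pair was scarce. The SQT-3 partner dpy-17 (WBGene00001076; chromosome III, 5107330 to 5108492, plus strand) stood at 4.20 ± 1.35 CPM per kb, above 28.4% of ranked genes, and dpy-14 (WBGene00001075; chromosome I, 6843589 to 6845142, plus strand) at 0.767 ± 0.565 CPM per kb, above 7.19%. Among the 7 most abundant genes, wild-type ranges of neighbours in this order overlapped, whereas the steps down to lon-3, from lon-3 to dpy-17 and from dpy-17 to dpy-14 were wider than the ranges. Even so, dpy-5 exceeded dpy-13 per kb, dpy-13 exceeded dpy-4 and sqt-3 exceeded sqt-1 in all 15 libraries. The order of rol-6 and sqt-2 was less stable, with rol-6 above sqt-2 in 5 of 5 wild-type libraries but in 9 of 15 libraries over all genotypes. Together the 10 genes took 0.737% to 1.36% of the counts in wild-type libraries, 1.03% to 1.25% in sma-3 libraries and 0.694% to 0.846% in sma-6 libraries.

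**Figure D1:**
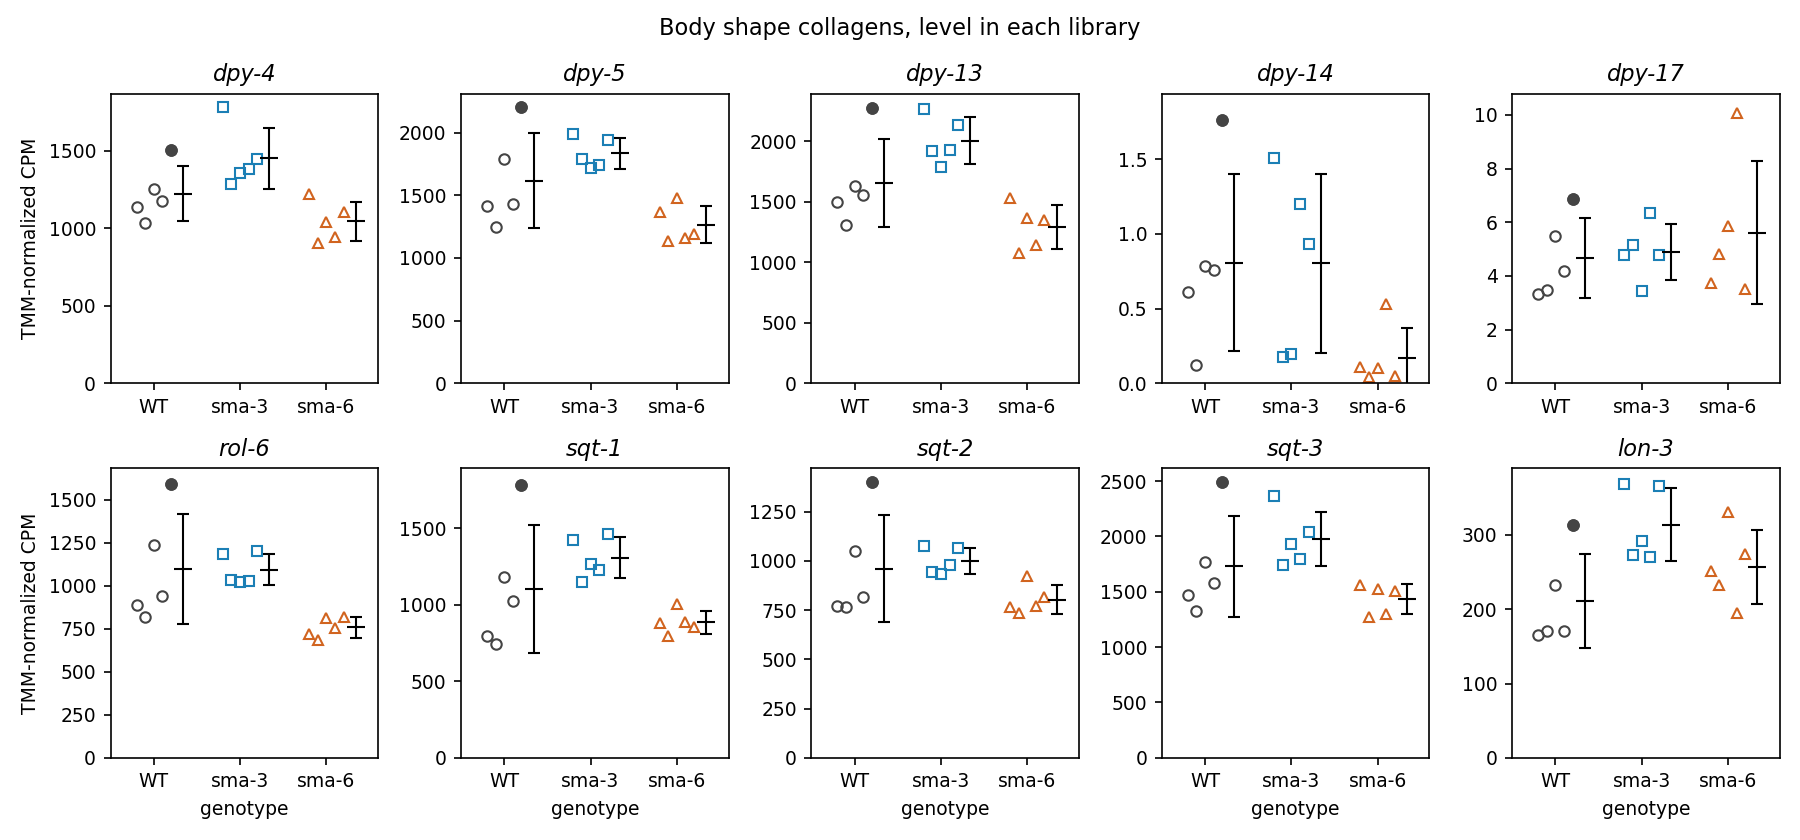
Level of each of the 10 body shape collagen genes in TMM-normalized CPM (vertical axes, each from 0) in 5 libraries of each genotype (horizontal axes); symbols are libraries, the filled circle is wild-type replicate 5, and bars show the mean ± SD, cut at 0 for dpy-14. The filled circle is the highest wild-type value in every panel, and sma-6 libraries lie below all sma-3 libraries for dpy-4, dpy-5, dpy-13, rol-6, sqt-1, sqt-2 and sqt-3.

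The first comparison asks how these collagens differ between the sma-3 Smad mutants and the wild type. Of the 10 genes, 1 rose in sma-3 mutants and none fell by the quasi-likelihood test of edgeR (Benjamini-Hochberg adjusted p under 0.05, over 13720 genes). Over all genes tested 14.6% passed in either direction, 4.40% as higher and 10.2% as lower, so 1 of 10 is near the background. None of the 10 had mutant libraries wholly above or below the wild-type libraries, beside 9.70% of all genes tested (3.34% above and 6.36% below). At an unadjusted p of 0.05, 3 of the 10 genes passed (dpy-4, dpy-13 and lon-3), all higher in the mutants, as did 12.7% of all genes tested in that direction. The median log2 fold change of the 10 genes was 0.19, beside 0.011 over all genes tested.

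The gene that rose was lon-3, the collagen whose dose affects body length. Its level was 166, 171, 233, 171 and 313 CPM in wild-type replicates 1 to 5. In sma-3 replicates 2, 3, 4, 5 and 9 it was 368, 273, 292, 269.8 and 366 CPM. The lowest mutant library lay above 4 of the 5 wild-type libraries and below replicate 5. Means were 211 ± 63.5 CPM in the wild type and 314 ± 49.5 CPM in sma-3 mutants (SD, n = 5 each), a 1.49-fold difference (edgeR log2 fold change 0.57, SE 0.17, adjusted p = 0.0307). The call is marginal: without wild-type replicate 5 the log2 fold change was 0.76 (edgeR adjusted p = 0.0016). It missed the threshold when wild-type replicate 1, 2 or 4 or sma-3 replicate 2 or 9 was left out, with log2 fold changes between 0.50 and 0.52 and edgeR adjusted p between 0.0568 and 0.0825. In the authors' deposited table of sma-3 mutants against N2, lon-3 had a log2 fold change of 0.59 and a false discovery rate of 0.0221, and the other 9 genes had false discovery rates of 0.128 or more.

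The dumpy collagens showed smaller differences that the test did not separate from the spread between libraries. The means of dpy-13 were 1656 ± 367 CPM in the wild type and 2008 ± 191 CPM in sma-3 mutants (edgeR log2 fold change 0.28, SE 0.13, adjusted p = 0.143). For dpy-4 they were 1223 ± 178 CPM and 1452 ± 195 CPM (edgeR log2 fold change 0.25, SE 0.11, adjusted p = 0.128). At the other end rol-6, the roller collagen, had nearly equal means of 1097 ± 319.6 CPM and 1094 ± 90.0 CPM (edgeR log2 fold change -0.0034, SE 0.14, adjusted p = 0.991, 95% interval -0.29 to 0.29), and the sign of its fold change depended on the scaling. These values rested on 1 library to a large extent. Without wild-type replicate 5, 6 of the 10 genes passed as higher in sma-3 mutants, at edgeR adjusted p from 0.0016 to 0.0303. Their log2 fold changes were 0.33 for dpy-4, 0.32 for dpy-5, 0.42 for dpy-13, 0.48 for sqt-1, 0.36 for sqt-3 and 0.76 for lon-3. Any other single omission left at most 1 gene passing. Replicate 5 was singled out as the highest wild-type library for all 10 genes. Its omission therefore raises these fold changes by construction, and the 6 calls are no separate support for a rise. Without that library 8.96% of all genes tested passed as higher in sma-3 mutants.

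The second comparison asks the same of the sma-6 receptor mutants. In sma-6 mutants 1 of the 10 genes fell relative to the wild type and none rose, while 6.50% of all genes tested passed in either direction, 3.00% as higher and 3.51% as lower. Their median log2 fold change was -0.30, beside 0.0052 over all genes tested, and 8 of the 10 fold changes were negative. Here too 1 of 10 is near the background. Without wild-type replicate 2 dpy-5 passed as well (edgeR adjusted p = 0.0398), which made 2, beside 3.00% of all genes tested that passed as lower without that library. At an unadjusted p of 0.05, 5 genes passed, all lower: dpy-4, dpy-5, dpy-13, dpy-14 and rol-6. Of all genes tested, 10.9% passed as lower at that p.

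The gene that fell was rol-6. Its level was 890.0, 821, 1236, 943 and 1594 CPM in wild-type replicates 1 to 5. In sma-6 replicates 1, 2, 3, 4 and 6 it was 721, 683, 816, 753 and 817 CPM. Every mutant library was lower than every wild-type library, which was true of none of the other 9 genes. Over all genes tested 8.24% showed such a separation, 4.50% with the mutant lower and 3.73% with it higher. The mean was 1097 ± 319.6 CPM in the wild type and 758 ± 58.9 CPM in sma-6 mutants (SD, n = 5 each), 69.1% of the wild-type mean (edgeR log2 fold change -0.53, SE 0.14, adjusted p = 0.0256). Without wild-type replicate 5 the log2 fold change was -0.36 (edgeR adjusted p = 0.0427). The call ended when wild-type replicate 3 was left out (edgeR adjusted p = 0.0594), when sma-6 replicate 2 was left out (0.0742), or when only the 10 libraries of these genotypes were fitted (0.0607).

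For dpy-13 the means were 1656 ± 367 CPM in the wild type and 1295 ± 183 CPM in sma-6 mutants (edgeR log2 fold change -0.35, SE 0.13, adjusted p = 0.102). For dpy-5 they were 1618 ± 383 CPM and 1267 ± 151 CPM (edgeR log2 fold change -0.35, SE 0.12, adjusted p = 0.0980). These differences did not pass, and without wild-type replicate 5 they were smaller still, at log2 -0.21 for dpy-13 and -0.22 for dpy-5. The length-limiting lon-3 had a positive fold change, with means of 211 ± 63.5 CPM and 257 ± 50.3 CPM and 4 of 5 sma-6 libraries above 4 of 5 wild-type libraries, and did not pass (edgeR log2 fold change 0.29, SE 0.17, adjusted p = 0.356). Without wild-type replicate 5 its log2 fold change was 0.47 (edgeR adjusted p = 0.0615).

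Most of the calls lay between the mutants, a comparison that sets neither of them against the wild type. Of the 10 genes, 7 were lower in the sma-6 mutant and none was higher, while over all genes tested 23.1% passed in either direction, 10.3% as lower and 12.7% as higher. The 7 were dpy-4, dpy-5, dpy-13, dpy-14, rol-6, sqt-1 and sqt-3. The abundant genes varied together between libraries, as described below, so their calls are not independent of each other in any comparison. For 7 genes (the same list with sqt-2 in place of dpy-14) all 5 sma-6 libraries lay below all 5 sma-3 libraries, beside 7.57% of all genes tested in that direction, 8.34% in the other and 15.9% in either. The median log2 fold change was -0.50, beside 0.0077 over all genes tested. Wild-type replicate 5 enters this comparison through the shared estimate of the spread, the filter, the scaling and the adjustment. Leaving it out added sqt-2 to the 7, and 26.5% of all genes tested then passed in either direction. Without sma-6 replicate 2 the count fell to 4 (dpy-4, dpy-5, dpy-13 and rol-6), beside 7.86% of all genes tested as lower.

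The annular collagen dpy-13 had the largest difference among the abundant genes. It measured 2268, 1925, 1786, 1926 and 2134 CPM in the 5 sma-3 libraries. It measured 1532, 1079.7, 1369, 1145 and 1348 CPM in the 5 sma-6 libraries. All sma-6 values lay below all sma-3 values, and the wild-type range of 1312 to 2277 CPM spanned the gap. The sma-6 mean of 1295 ± 183 CPM was 64.5% of the sma-3 mean of 2008 ± 191 CPM (SD, n = 5 each; edgeR log2 fold change -0.63, SE 0.13, adjusted p = 0.00215).

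Other dumpy collagens differed by similar amounts. The level of dpy-5 ran from 1134 to 1479.9 CPM in sma-6 and from 1714 to 1993 CPM in sma-3 libraries (edgeR log2 fold change -0.53, SE 0.12, adjusted p = 0.00550). The level of dpy-4 ran from 909 to 1221 CPM and from 1284 to 1784 CPM, respectively (edgeR log2 fold change -0.47, SE 0.11, adjusted p = 0.00482). For neither gene did the mutants' ranges overlap.

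Among the roller and squat genes, sqt-1 measured 1424, 1148, 1269.8, 1225 and 1464 CPM in sma-3 libraries. In sma-6 libraries it measured 881, 799, 1006, 888 and 852 CPM, below every sma-3 value (edgeR log2 fold change -0.56, SE 0.17, adjusted p = 0.0255). This call ended without sma-3 replicate 9, sma-6 replicate 2 or sma-6 replicate 6, when edgeR adjusted p for sqt-1 rose to at most 0.0606. Its genetic partner rol-6 ran from 683 to 817 CPM in sma-6 and from 1023 to 1202 CPM in sma-3 libraries (edgeR log2 fold change -0.53, SE 0.14, adjusted p = 0.0110). For sqt-3 the ranges were 1269 to 1559 CPM and 1744 to 2365 CPM (edgeR log2 fold change -0.46, SE 0.14, adjusted p = 0.0204). The call of sqt-3 ended in 1 of 15 omissions, at an edgeR adjusted p of 0.0543 without sma-6 replicate 2. The remaining gene of this kind, sqt-2, also did not overlap but missed the threshold, at 737 to 924 CPM and 932 to 1073 CPM (edgeR log2 fold change -0.32, SE 0.13, adjusted p = 0.0940). Overlapping ranges were seen for lon-3, at 195 to 330.5 CPM in sma-6 and 269.8 to 368 CPM in sma-3 libraries (edgeR log2 fold change -0.29, SE 0.17, adjusted p = 0.228, 95% interval -0.64 to 0.066).

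**Figure D2:**
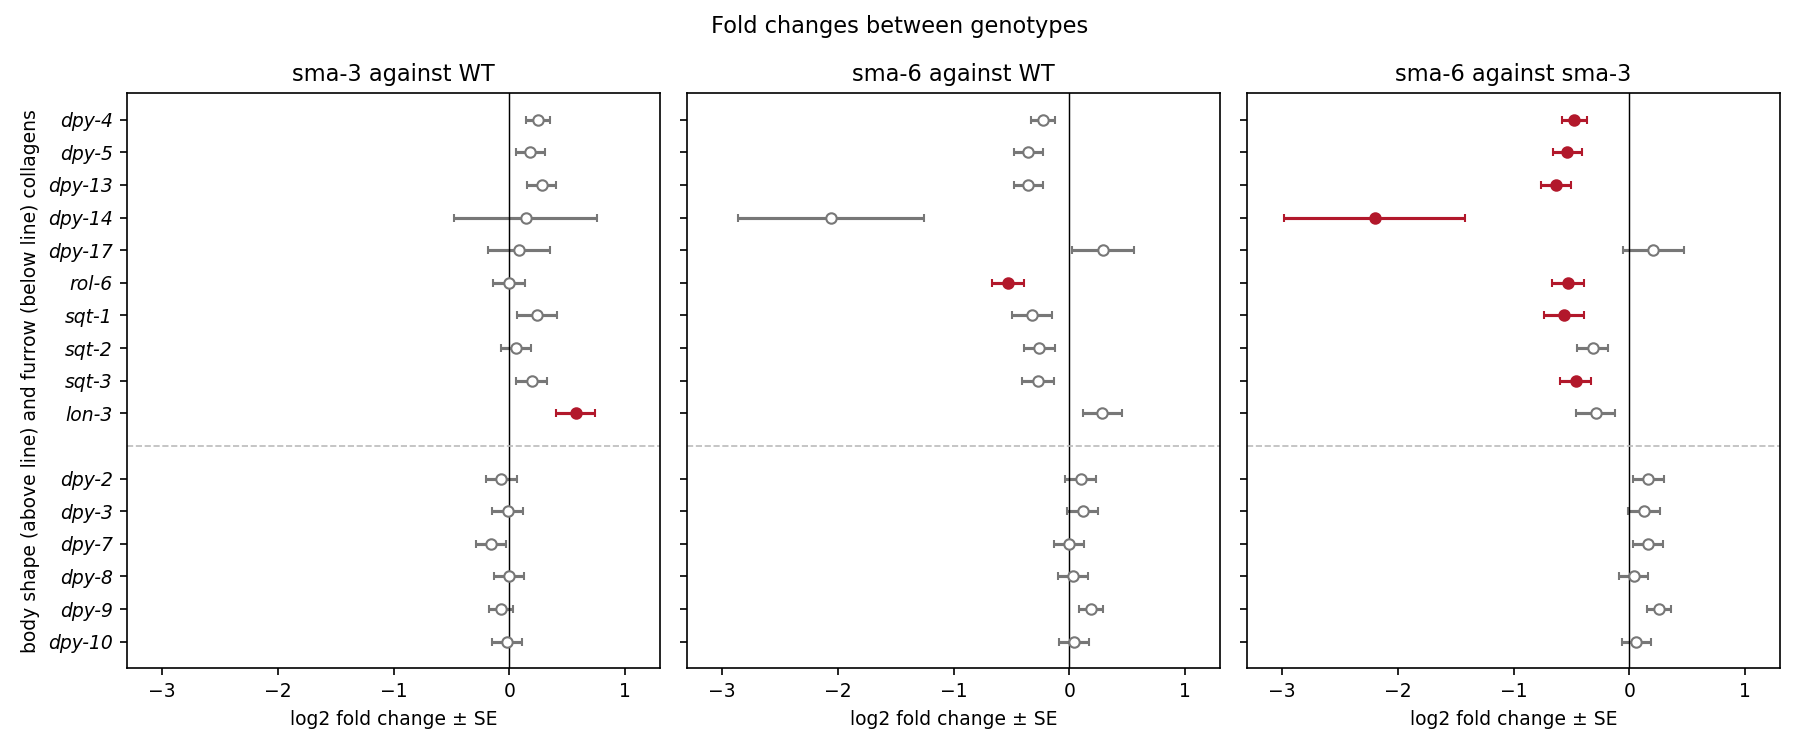
Log2 fold change ± SE (horizontal axes) of the 10 body shape collagen genes (above the dashed line) and the 6 furrow collagen genes (below it) in the 3 comparisons of genotypes, fitted with edgeR over all 15 libraries; filled red points passed an adjusted p of 0.05. In sma-6 against sma-3 mutants 7 body shape genes passed, all lower, and no furrow gene passed in any comparison.

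Other measurements moved between the mutants as well. The sum of 6 epidermal markers (lin-26, elt-1, elt-3, nhr-25, vab-10 and che-14), all of which were expressed, was 1659 to 1961 CPM in sma-6, 1403 to 1726 CPM in sma-3 and 1289 to 1527 CPM in wild-type libraries. Most of this sum was vab-10, the 1 marker that was higher in the sma-6 mutant relative to sma-3 mutants in the edgeR test; none was lower. The other 5 markers summed to 222.7 to 269.7 CPM in sma-6, 239.7 to 286.7 CPM in sma-3 and 236.6 to 256.7 CPM in wild-type libraries, ranges that overlap. Of 14 molting-cycle genes, 4 were higher and 1 lower in sma-6 relative to sma-3 mutants, and 3 of 4 germline markers were higher. Of 4 muscle markers (myo-3, unc-54, unc-15 and hlh-1) 1 was higher and 1 lower. Of 4 intestinal markers (ges-1, elt-2, elt-7 and vha-6) 1 was higher, and of 4 neuronal markers (rab-3, unc-119, snb-1 and ric-4) 1 was lower. Over all genes tested, 12.7% passed as higher and 10.3% as lower in that comparison. The molting-cycle score, the centred mean log2 CPM of those 14 genes, ran from -0.105 to 0.275 in sma-6, from -0.274 to 0.158 in sma-3 and from -0.135 to 0.191 in wild-type libraries. With that score as a covariate 9 of the 10 collagens were lower in sma-6 relative to sma-3 mutants, 5 were lower in sma-6 mutants than in the wild type and 4 were higher in sma-3 mutants than in the wild type. In the same directions 12.8%, 5.96% and 6.33% of all genes tested passed with that covariate. The part of these markers in the collagen values was not tested.

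The scarce genes were dpy-14, one of the 7 genes lower in sma-6 relative to sma-3 mutants, and dpy-17. Counts of dpy-14 were 11, 6, 15, 12 and 30 in wild-type replicates 1 to 5, or 0.609, 0.125, 0.784, 0.758 and 1.76 CPM. In sma-3 libraries they were 32, 3, 5, 27 and 22, or 1.51, 0.175, 0.199, 1.20 and 0.932 CPM. In sma-6 libraries they were 2, 1, 2, 12 and 1, or 0.106, 0.0452, 0.102, 0.529 and 0.0483 CPM. All but 1 sma-6 library were at or below the 3-count floor, which corresponds to 0.0621 to 0.182 CPM per library, and sma-6 replicate 4 overlapped both other genotypes. Pooled counts were 74 in the wild type, 89 in the sma-3 mutant and 18 in the sma-6 mutant, and the depth-adjusted ratio of sma-6 to sma-3 was 0.213 with an exact 95% interval of 0.121 to 0.356 that covers counting error only. Across libraries the difference barely passed (edgeR log2 fold change -2.20, SE 0.78, adjusted p = 0.0492), and dpy-14 lost its call when wild-type replicate 1, 3 or 4, sma-3 replicate 2, 5 or 9 or sma-6 replicate 1, 2, 3 or 6 was left out (edgeR adjusted p from 0.0569 to 0.113). The call was also lost without the filter on low counts (edgeR adjusted p = 0.0508) and by limma-voom (adjusted p = 0.104), and dpy-14 was removed by the filter, so not tested, when only the genotypes compared were fitted or with a minimum of 1 CPM. With the replicate block the edgeR adjusted p was 0.380, beside 0.157 in the same libraries without the block. The fitted fold change of so scarce a gene also depends on the prior count. Against the wild type the edgeR test gave log2 fold change -2.06, SE 0.80, adjusted p = 0.138.

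The level of dpy-17 was 3.32, 3.48, 5.49, 4.17 and 6.86 CPM in wild-type replicates 1 to 5. In sma-3 libraries it was 4.76, 5.15, 3.42, 6.34 and 4.79 CPM. In sma-6 libraries it was 3.75, 4.83, 5.86, 10.1 and 3.52 CPM. The ranges of all 3 genotypes overlapped, and the highest value belonged to sma-6 replicate 4, which was also the highest sma-6 library for dpy-14. No comparison passed for dpy-17, and the 95% interval of its log2 fold change was -0.27 to 0.85 in sma-6 mutants against the wild type and -0.35 to 0.77 against sma-3 mutants.

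No furrow collagen was called. None of the 6 genes passed in any of the 3 comparisons, and their median log2 fold changes were -0.043 in sma-3 mutants, 0.069 in sma-6 mutants and 0.14 in sma-6 against sma-3 mutants. DESeq2 and limma-voom also called none of the 6 in any comparison. At an unadjusted p of 0.05, only dpy-9 passed, in sma-6 against sma-3 mutants, where it was higher (edgeR log2 fold change 0.25, SE 0.10, adjusted p = 0.0871), as were 19.5% of all genes tested at that p. Whether the 2 groups of genes differ in response was not tested. The summed level of the 10 body shape genes divided by that of the 6 furrow genes was 4.83 ± 0.721 in the wild type, 5.94 ± 0.821 in the sma-3 mutant and 3.78 ± 0.351 in the sma-6 mutant (SD, n = 5 each). This ratio ran from 3.47 to 4.25 in sma-6 libraries, from 4.27 to 6.00 in wild-type libraries and from 4.96 to 6.96 in sma-3 libraries. Libraries of sma-6 mutants thus lay below all others, by a narrow margin to the wild type, and without wild-type replicate 5 the wild-type mean was 4.54 ± 0.356 (SD, n = 4).

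**Figure D3:**
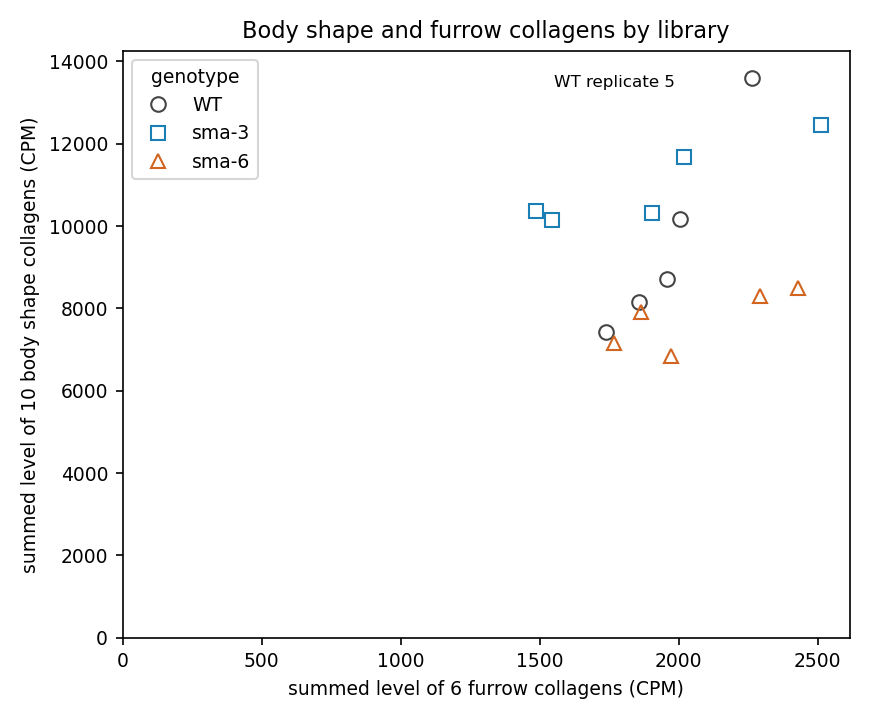
Summed level of the 10 body shape collagen genes (vertical axis, CPM) against the summed level of the 6 furrow collagen genes (horizontal axis, CPM), one symbol per library and one symbol shape per genotype. At comparable furrow levels sma-3 libraries lie above sma-6 libraries, and wild-type replicate 5 lies at the top.

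Of 14 genes for processing and cross-linking cuticle collagens, 12 could be tested. None passed in sma-3 mutants by edgeR, DESeq2 or limma-voom (2 did at an unadjusted p of 0.05 in edgeR), and 2 rose in sma-6 mutants, beside the 3.00% of all genes tested that passed as higher. The prolyl 4-hydroxylase subunit gene phy-2 (chromosome IV, 12211097 to 12215987) had means of 97.1 ± 1.53 CPM in the wild type and 204.2 ± 30.6 CPM in sma-6 mutants (edgeR log2 fold change 1.07, SE 0.091, adjusted p = 5.04e-07). Its neighbourhood moved too: of the 10 nearest tested genes, 5 on each side, 7 were higher and none was lower in sma-6 mutants, with log2 fold changes from -0.17 to 1.29. The part of that region in the value for phy-2 was not tested. The SQT-3 protease gene dpy-31 rose from 73.5 ± 2.78 CPM to 86.9 ± 7.53 CPM in sma-6 mutants (edgeR log2 fold change 0.24, SE 0.060, adjusted p = 0.0211). Relative to sma-3 mutants, the same 2 genes were higher, and the cross-linking genes mlt-7 (edgeR log2 fold change -0.41, SE 0.14, adjusted p = 0.0351) and bli-3 (edgeR log2 fold change -0.21, SE 0.054, adjusted p = 0.00924) were lower in sma-6 mutants. Over all genes tested 12.7% passed as higher and 10.3% as lower in that comparison. DESeq2 and limma-voom each called 5 of the 12 genes there, these 4 among them.

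Between libraries of a genotype, abundant collagens had a higher median variation than genes of at least 100 CPM, most so in the wild type. Their coefficients of variation were 14.5% to 37.8% over 5 wild-type libraries with a median of 27.4%, and 8.09% to 21.8% with a median of 15.7% without replicate 5. In sma-3 mutants the range was 6.63% to 15.8% with a median of 9.89%. In sma-6 mutants it was 7.77% to 19.6% with a median of 10.7%. The median over 1918 genes of at least 100 CPM was 6.93%, 4.78%, 7.30% and 6.79% in the same 4 sets of libraries. In sma-3 mutants dpy-5 (6.81%) and sqt-2 (6.63%) lay below that median.

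This variation was largely shared. Each library's log2 CPM was expressed as a deviation from its genotype mean, and pairs of genes were correlated over the 15 libraries. Among the 28 pairs of the 8 abundant genes Pearson's r lay between 0.693 and 0.975 with a median of 0.895, and all 28 passed a within-genotype permutation test after adjustment over 45 pairs, by Pearson's r and by Spearman's rho. The median r of each abundant gene with all other tested genes lay between -0.013 (dpy-5) and 0.0027 (dpy-4). Positive and negative values can cancel in such a median, so it does not show how many genes correlate strongly. As a background, r was over 0.8 with 0.357% (dpy-4) to 2.29% (sqt-1) of other tested genes. The share of all gene pairs that would pass the permutation test was not computed. These collagen genes share each library's composition and depth. Without the 2 libraries farthest from the median of the first gene of each pair, r lay between 0.504 and 0.943 with a median of 0.805. Without wild-type replicate 5 it lay between 0.514 and 0.939 with a median of 0.791, and in the mutant libraries alone between 0.467 and 0.933 with a median of 0.749.

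**Figure D4:**
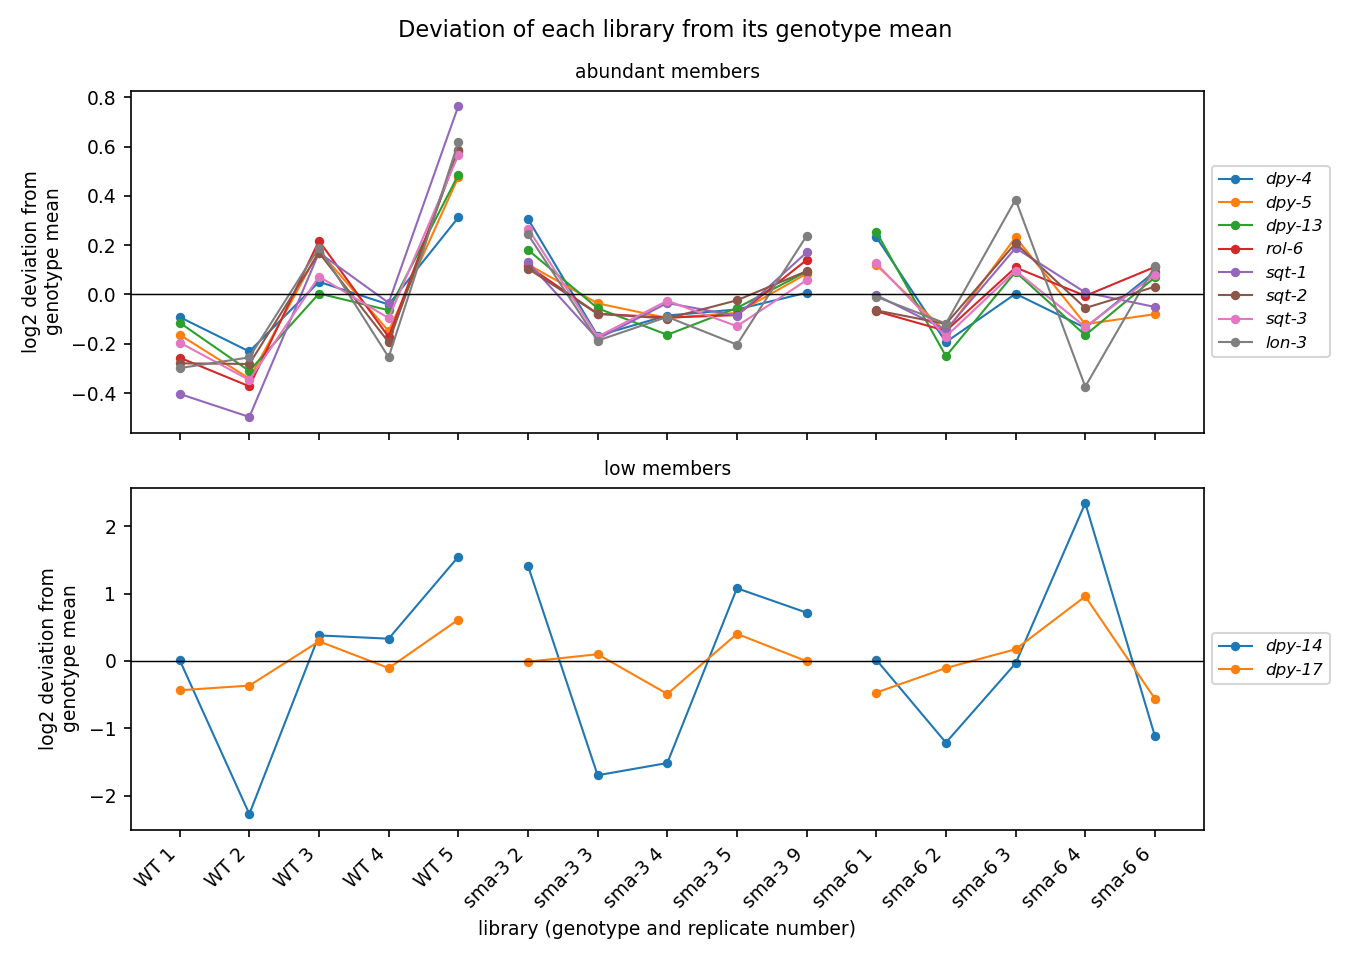
Deviation of log2 CPM from the genotype mean (vertical axes) in each of the 15 libraries (horizontal axis) for the 8 abundant genes (upper panel) and for dpy-14 and dpy-17 (lower panel, on a wider scale); lines join libraries of one genotype for legibility and imply no order. The abundant genes deviate together, most in wild-type replicate 5, and dpy-14 reaches the largest deviations of the 10 genes.

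Of the 3 gene pairs listed for their known genetics, secretion or location, 2 varied together. For rol-6 and sqt-1, r was 0.951 (permutation p = 0.00013, adjusted p = 0.000585; rho 0.832, permutation p = 0.00198), 0.846 without the 2 farthest libraries and 0.877 without wild-type replicate 5. For the annular pair dpy-5 and dpy-13, r was 0.896 (permutation p = 1e-04, adjusted p = 0.000585; rho 0.868, permutation p = 5e-05), 0.831 without the 2 farthest libraries and 0.793 without wild-type replicate 5. The secretion pair dpy-17 and sqt-3 showed no detectable relation over the 15 libraries, with r of 0.244 (permutation p = 0.411, adjusted p = 0.440; rho 0.096, permutation p = 0.745), 0.095 without the 2 farthest libraries and -0.122 without wild-type replicate 5. Its r was unstable, at 0.616 without the sma-6 libraries, 0.345 without the sma-3 libraries and -0.414 without the wild-type libraries. Other abundant pairs were as close as these: r was 0.975 for rol-6 with sqt-2, the highest of the 45 pairs, and 0.932 for dpy-13 with sqt-3.

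Correlations of the scarce genes with the others were lower. Of the 16 pairs of dpy-14 or dpy-17 with an abundant gene, r lay between 0.058 and 0.600 with a median of 0.501, and 2 passed by Pearson's r. With each other dpy-14 and dpy-17 had an r of 0.704 (permutation p = 0.0053, adjusted p = 0.00822; rho 0.632, permutation p = 0.0163), or 0.574 without wild-type replicate 2 and sma-6 replicate 4, the 2 farthest libraries. The counts of dpy-14, from 1 to 32 per library, limit the precision of its deviations.

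**Figure D5:**
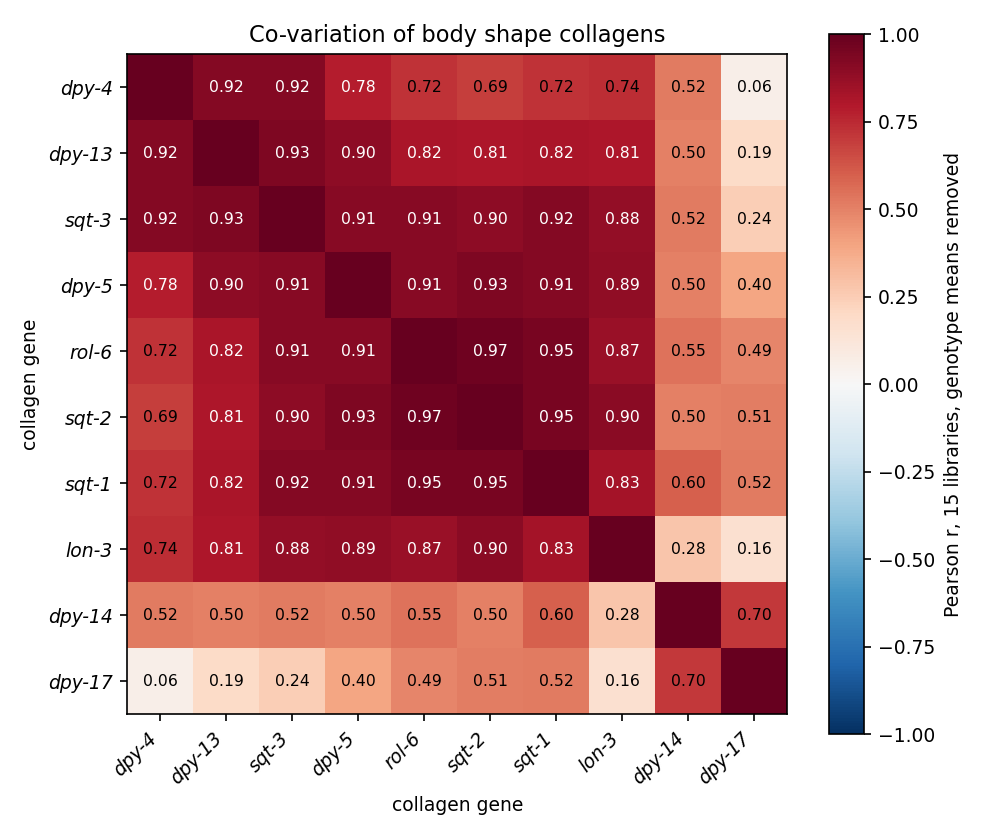
Pearson's r between deviations from the genotype mean of log2 CPM for every pair of the 10 genes over 15 libraries, on a colour scale from -1 to 1, with r printed in each cell and genes on both axes. The block of 8 abundant genes holds r of 0.69 or more, and dpy-17 is closest to dpy-14.

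Furrow collagens were examined in the same way, as a description. Over 48 pairs of an abundant body shape gene with a furrow gene r lay between 0.401 and 0.785 with a median of 0.619, whereas over the 15 pairs of furrow genes it lay between 0.867 and 0.984 with a median of 0.946. By gene, the median r with furrow genes was highest for dpy-4 at 0.744 and lowest among the abundant genes for rol-6 at 0.487. These ends of the group had an r of 0.722 with each other.

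Ratios within a library were compared for the same 3 listed pairs, a measure chosen after the data had been seen, by exact two-sided permutation tests over libraries, for which the smallest p is 0.00794 and the 9 tests were adjusted together. The ratio of rol-6 to sqt-1 was 1.02 ± 0.105 in the wild type, 0.839 ± 0.0365 in the sma-3 mutant and 0.858 ± 0.0592 in the sma-6 mutant (SD, n = 5 each). The log2 difference from the wild type was -0.27 for the sma-3 mutant (exact p = 0.0159) and -0.24 for the sma-6 mutant (exact p = 0.0238), and neither passed after adjustment (adjusted p = 0.107 for both). The ratio of dpy-5 to dpy-13 was 0.976 ± 0.071, 0.916 ± 0.0303 and 0.984 ± 0.0904 in the wild type, sma-3 and sma-6 mutants, and none of its 3 comparisons passed (exact p from 0.0794 to 0.897). The ratio of dpy-17 to sqt-3 reached its highest value, 0.00774, in sma-6 replicate 4, and none of its 3 comparisons passed (exact p from 0.143 to 0.556).

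The gene outside the group whose deviations were most like those of each member was taken from 11648 tested genes whose average log2 CPM was 1 or higher, over 15 libraries. For dpy-13 and sqt-3 this was the same collagen gene, col-17, with r of 0.944 and 0.973. For dpy-5 it was rol-8, another roller gene, with r of 0.963. The remaining most similar genes were hke-4.2 for dpy-4 (0.912), F33A8.7 for rol-6 (0.973), pqn-32 for sqt-1 (0.983), R05G6.9 for sqt-2 (0.980) and Y46G5A.29 for lon-3 (0.974). For the scarce genes they were gsr-1 for dpy-14 (0.848) and Y77E11A.2 for dpy-17 (0.919). These are the highest of many values and are given as a description.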

How the data were processed

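Poly-A RNA of whole L2 larvae was made into stranded libraries with TRIZOL and a TruSeq stranded kit, per the labels' protocols. Genotype and replicate number came from the labels. The submitters' processing notes name STAR 2.5.2b, featureCounts 1.5.2, bcl2fastq, limma and the WBcel235 build, without roles. The authors deposited whole-number counts per gene and library, which were used in all tests. The CPM columns that the authors deposited equalled each count divided by the library total to within 5e-04 and were not used otherwise. A log2 fold change and an average log2 expression for sma-3 mutants against N2 were deposited as well, and the fold changes of the 10 genes are quoted from there. The p-values and false discovery rates the authors deposited belong to that same comparison.

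Counts were fitted in R 4.3.3 with edgeR 4.0.16 (TMM, filterByExpr with a minimum count of 10 and minimum total of 15, 13720 genes kept including all 10 members, glmQLFit and glmQLFTest, genotype as the only factor over 15 libraries, Benjamini-Hochberg adjustment over all genes tested, threshold 0.05). An "edgeR adjusted p" comes from this test. The quasi-likelihood F statistic gave the standard errors, and levels are CPM scaled by TMM. Correlations used log2 CPM with a prior count of 0.5 as deviations from genotype means, with 100000 two-sided within-genotype permutations adjusted over 45 pairs. Ratios within libraries were tested by exact two-sided permutation over the 252 splits of 10 libraries. Positions and exon lengths came from the Ensembl annotation of WBcel235, matched by identifier for 16068 of 16259 genes. No pair of replicates agreed within sampling noise (chi-square per degree of freedom 5.09 to 40.0), so each library was counted once. Reads carried no molecular identifiers in the labels, so floors and intervals cover counting error only, and reads shared between related collagen genes could not be examined from counts. The fit was tested on simulated data.

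The 10 genes and the other gene lists were chosen with earlier results of these data known. All 10 members are named. Beyond them the rule named the mutated genes, the 1 most similar gene per member, and at most 3 called genes each among furrow collagens and processing enzymes, with dpy-9 and the fourth called processing enzyme added after their values were seen. Alternatives were RLE factors, library totals, no filter or a minimum of 1 CPM in 5 libraries, DESeq2 1.42.0, voom in limma 3.58.1, fits to the 10 libraries compared, the molting-cycle score as a covariate, the replicate number as a block and the omission of each library.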

Additional observations from a re-analysis of the deposited data

Results flagged for a closer look

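Of 30 groups of 5 libraries (10 genes in 3 genotypes), 1 held a library that stood far from the others by Dixon's criterion for 5 values. It was sma-6 replicate 4, in which dpy-14 measured 0.529 CPM from 12 counts, while the other sma-6 libraries measured 0.0452 to 0.106 CPM from 1 or 2 counts each. The same library was the highest sma-6 library for dpy-17, at 10.1 CPM. Chance alone flags about 1 in 20 groups. Without this library the log2 fold change of dpy-14 was -3.37 against sma-3 mutants (edgeR adjusted p = 0.0148) and -3.21 against the wild type (edgeR adjusted p = 0.0569). The cause was not tested.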

How the results depend on the processing

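In sma-3 mutants against the wild type, 1 of the 10 genes passed. The count was 2 with library totals as the only scaling (dpy-4 and lon-3), 4 with the molting-cycle covariate (dpy-4, dpy-13, sqt-3 and lon-3), and 0 to 6 when 1 library was left out. Over all genes tested, 15.6%, 17.9% and 8.39% to 22.2% passed in these settings in either direction. With library totals 10.3% passed as higher, beside 4.40% in the main fit. In sma-6 mutants against the wild type 1 passed, with 2 by DESeq2 (dpy-14 and rol-6), 0 when only the genotypes compared were fitted, 5 with the molting-cycle covariate, and 0 to 2 when 1 library was left out. In sma-6 against sma-3 mutants 7 passed, and 4 to 8 when 1 library was left out, with 4 without sma-6 replicate 2. Over all genes tested 23.1% passed in the main fit and 17.8% to 26.5% over these omissions. Same-numbered libraries showed little shared deviation (r from -0.119 to 0.115 over 11 pairs, 2 above 0.1). These values cannot exclude a pairing by number that affects few genes, and the main fit used no pairing. With the replicate block, which could be fitted to 13 libraries, the counts were 0, 0 and 2 in the 3 comparisons, and in the same libraries without the block 0, 1 and 4. Over all genes tested 5.88%, 3.81% and 7.84% passed with the block, and 7.32%, 4.96% and 13.9% without it.

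The sign of rol-6 in sma-3 mutants against the wild type, -0.0034 as reported, turned to 0.0038 with RLE factors, 0.076 with library totals, 0.013 with a minimum of 1 CPM, 0.0037 by DESeq2, 0.030 by limma-voom, 0.0091 with only the genotypes compared and 0.066 with the molting-cycle covariate, and ran from -0.081 to 0.17 over omissions. That of dpy-17 turned to -0.032 with the replicate block and ran from -0.023 to 0.26 over omissions. Omissions also turned dpy-14 (-0.25 to 0.69) and sqt-2 (-0.012 to 0.23) in sma-3 mutants, dpy-17 in sma-6 mutants against the wild type (-0.036 to 0.47) and against sma-3 mutants (-0.13 to 0.34). None of these passed a test. The r of dpy-17 with sqt-3 ran from -0.122 to 0.483 over omissions and from 0.244 to 0.548 over the other settings in which it was computed. Omissions for the ratios were chosen after seeing the data. Among them the log2 difference of rol-6 to sqt-1 between the mutants ran from -0.0099 to 0.056 and that of dpy-5 to dpy-13 in sma-6 mutants from -0.025 to 0.053.

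Over all genes, those called in sma-3 mutants were 1997, of which 30.2% were higher, or 65.9% with library totals. In sma-6 against sma-3 mutants 55.2% of calls were higher, or 37.9% with library totals. With the replicate block 806, 522 and 1075 genes were called in the 3 comparisons beside 1997, 892 and 3169, and 1004 (sma-3 against the wild type) and 1905 (sma-6 against sma-3 mutants) in the same libraries without the block. In sma-6 mutants 1518 were called with the molting-cycle covariate. The number of correlated gene pairs, 31, stayed between 26 and 40. Depth limits dpy-14 most among the 10 genes. The causes were not tested.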
